A study of Mus musculus with 6 samples.

Results

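Collagen genes were taken as every gene of the count tables whose symbol has the form Col, a number, the letter a and a number, so that Colq, Colec and other genes that only begin with the same letters stayed out. The rule found 44 genes of 55341 listed, of which 11 code for fibrillar collagens, 8 for basement membrane collagens and 25 for the other collagens. A filter on low counts left 40 of them (10 fibrillar, 8 basement membrane and 22 others) among 16729 genes tested. The RNA came from cultures of cerebellar granule neurons (CGNs) of CD1-IGS mice dissected at P6-P8, with cerebella of pooled litters making up each biological replicate. Non-neuronal cells were reduced by a Percoll gradient and by AraC, which blocks cell division, in both groups alike. The 3 cultures labelled DMSO received vehicle, and the 3 cultures labelled GSK-126 received an inhibitor of EZH2, the enzyme that places the repressive mark H3K27me3 on histone H3. The drug was added at DIV3 and the RNA collected at DIV5. The sample titles name CGN, the agent and DIV3, the tissue label is cerebellum, the collection day comes from the study's methods, and the dose of this arm was not given in the sources used here.

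Collagens are the main structural proteins of the extracellular matrix, and their chains wind around each other into a rope-like helix before they are secreted. Fibrillar collagens assemble into the banded fibrils of the meninges and of vessel walls, whereas type IV collagen forms the sheet of the basement membrane under the meninges and around vessels, and the remaining families coat fibrils, link them to other structures or stay in the cell membrane. In the brain these genes are expressed mainly by fibroblasts of the meninges, mural cells, endothelium and some glia, and much less by neurons.

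Reads on genes numbered between 7407189 and 13092763 per library. Libraries with the same replicate number deviated from their group means together, with correlations across genes of 0.586, 0.663 and 0.513, whereas libraries with different numbers had correlations of 0.0122 or less. Deviations from a group mean cancel out within the group, so positive correlations at equal numbers make those at different numbers low or negative on average. The values at different numbers are thus no separate support for the pairing. The comparison was defined within pairs, with the replicate number as a block in edgeR's quasi-likelihood test. Without that block no gene of the 16729 passed, collagen genes included, and only 296 (1.77%) with higher and 369 (2.21%) with lower levels had an unadjusted p under 0.05. DESeq2 without the block called 19 genes higher and 2 lower, none of them a collagen, so every call below rests on the pairing. Levels are read counts scaled to library size with TMM factors, in CPM. Levels of different genes were ranked per kilobase of annotated exon, while shares, sums over lists and count ratios of partner chains were not divided by length.

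Markers of granule neurons and of other cells were both present. All 12 granule neuron markers passed the filter, with a summed level between 4063 and 6797 CPM with DMSO and between 3151 and 5136 CPM with GSK-126. The 10 markers of astrocytes and Bergmann glia summed to 2859 to 8410 CPM with DMSO and 2709 to 8711 CPM with GSK-126, and the 10 markers of fibroblasts and meninges to 485 to 859 and 502 to 861 CPM. Of 10 pericyte and smooth muscle markers 9 were tested, and the list summed to 731 to 1140 CPM with DMSO and 1089 to 1426 CPM with GSK-126. Endothelial markers were low, with a sum between 61.5 and 103 CPM in all libraries, and Cldn5, a tight junction gene of endothelium, stayed under 1 CPM. In bulk RNA a change in the number of cells of a type and a change in the RNA of each cell cannot be told apart.

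Collagen transcripts took between 1.07% and 1.60% of the gene counts of a library. Fibrillar collagens took 0.780% to 1.12%, basement membrane collagens 0.175% to 0.357% and the others 0.0871% to 0.128%. Summed per kilobase of exon, the classes stood in the same order in every library, at 862 to 1262, 259 to 497 and 125 to 184 CPM per kilobase. Per kilobase of exon with DMSO, the order of levels began with Col1a1 at 453 ± 96.6, Col3a1 at 253 ± 41.2, Col1a2 at 180 ± 23.4, Col4a1 at 166 ± 38.4 and Col4a2 at 103 ± 29.6 CPM per kilobase (SD, n = 3). The levels of Col1a2 and Col4a1, neighbours in that order, overlapped within their spread, but this depends on the length used. Per kilobase of the longest coding transcript they stood at 419 and 188 CPM with DMSO. At the other end, Col4a3 stood at 0.117 ± 0.0688 CPM per kilobase (SD, n = 3).

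**Figure D1:**
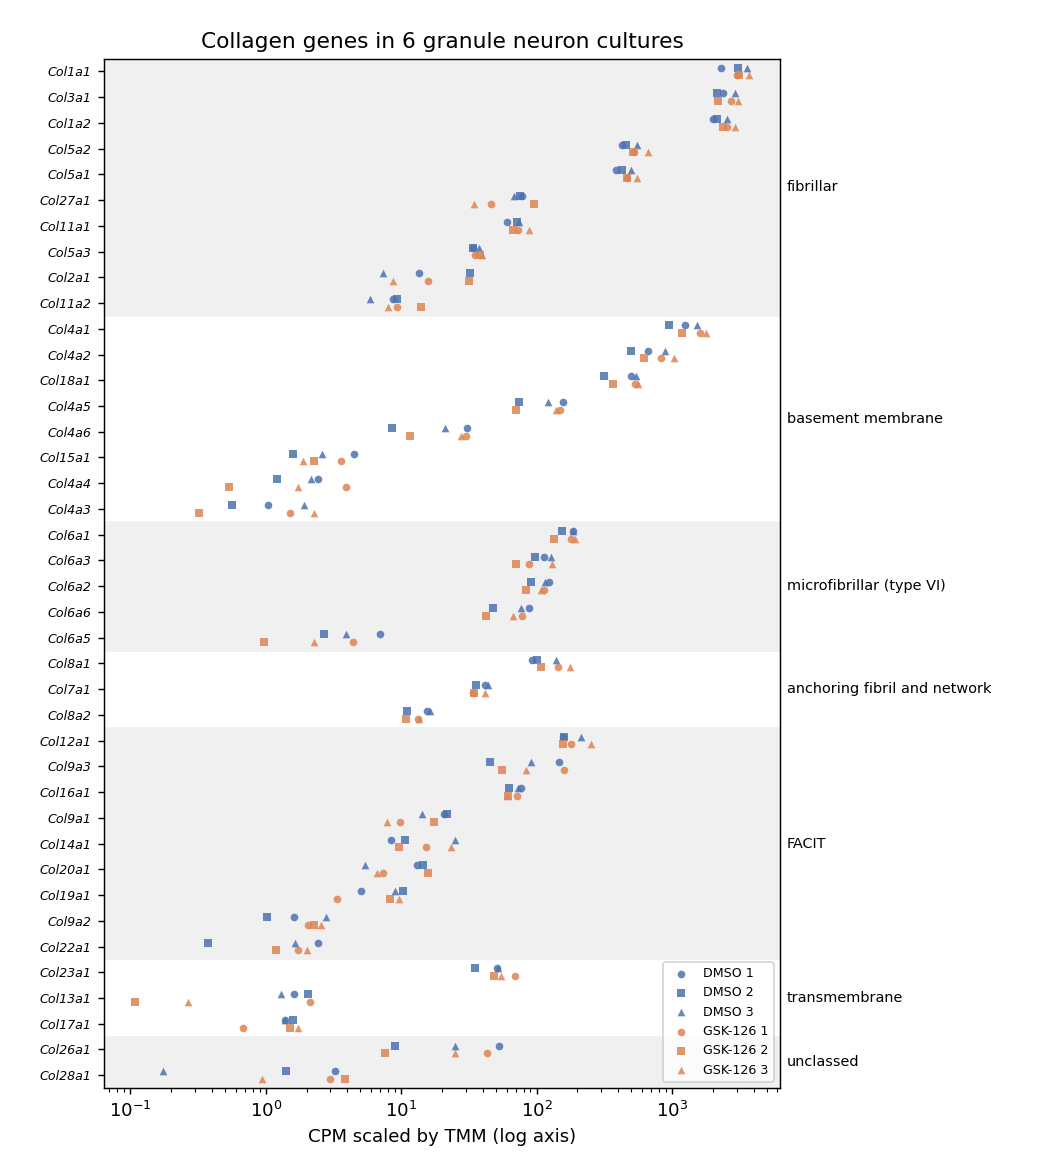
Level of each of the 40 tested collagen genes in CPM scaled by TMM (horizontal log axis), 1 row per gene grouped by family, with blue symbols for the DMSO libraries, orange symbols for the GSK-126 libraries and 1 symbol shape per replicate number. In no row do the orange and blue symbols separate completely, and libraries of the same number lie far apart for some genes of low or uneven level, such as Col13a1, Col27a1 and Col28a1.

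Among the 40 tested collagen genes, 5 were called higher with GSK-126, where 3.35% of all genes tested were called higher, and 1 was called lower, against 5.09% of all genes (edgeR, Benjamini-Hochberg adjusted p under 0.05). The higher genes were Col1a2 and Col5a2 of the fibrillar class, Col4a1 and Col4a2 of the basement membrane class and Col8a1 of the others, and the lower gene was Col9a1. The 5 rises were small, to between 1.16 and 1.28 times the DMSO level, and Col9a1 fell to 0.600 times. For no collagen gene did the groups separate, that is, lie without any overlap, while 4.72% of all genes separated upwards and 4.72% downwards. Within pairs, 12 of the 40 genes (30%) were higher with GSK-126 in all 3 pairs, against 19.5% of all genes, and 7 (17.5%) were lower in all 3, against 22.8%. The median log2 fold change was 0.092 over the tested collagens and -0.0056 over all genes tested, and 23 of 40 were above 0 where 49.1% of all genes were.

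**Figure D2:**
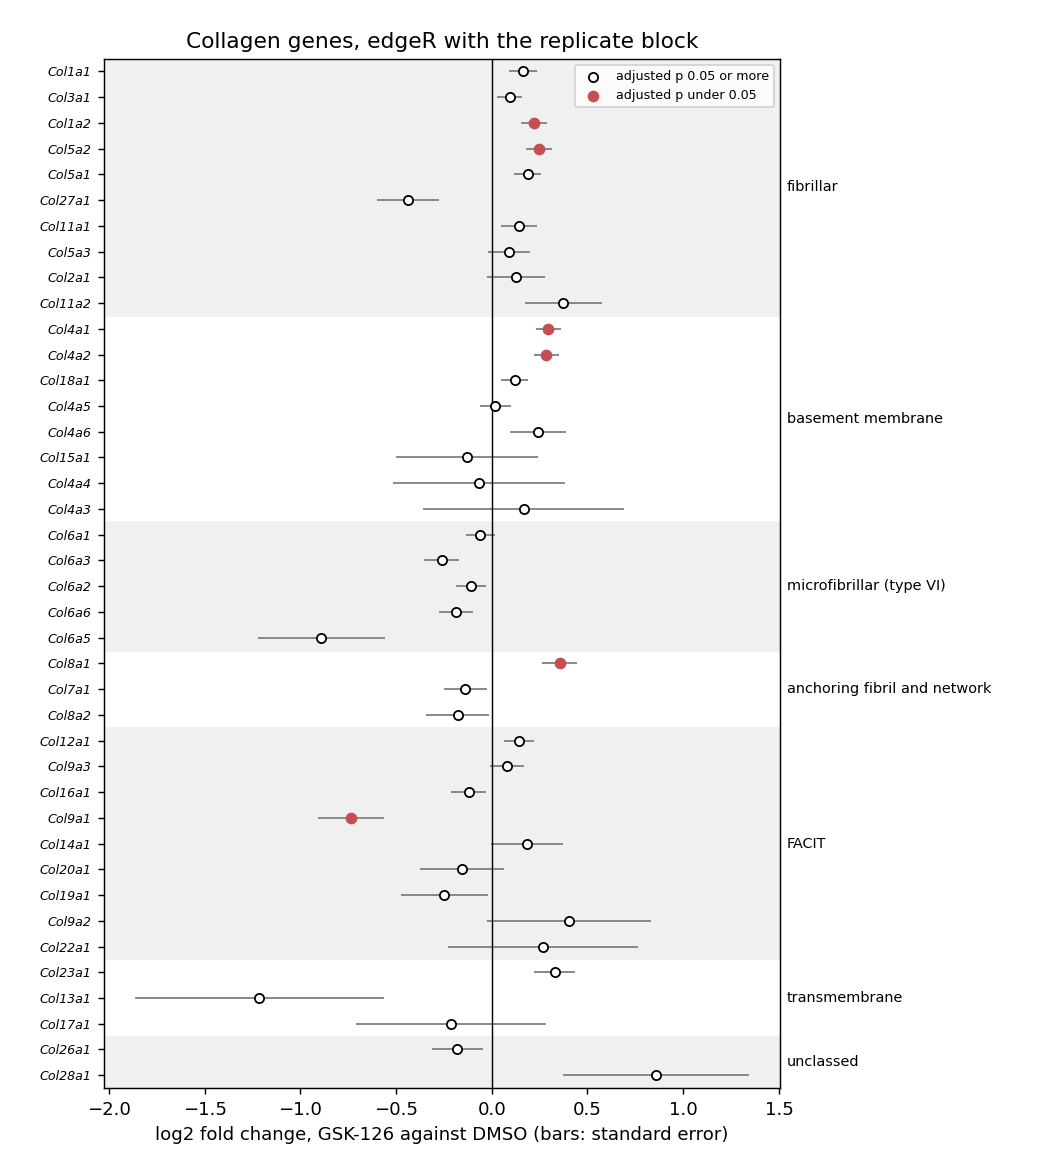
Log2 fold change of GSK-126 against DMSO for the 40 tested collagen genes, from edgeR with the replicate block, with bars for the standard error and filled symbols for an adjusted p under 0.05. Of the fibrillar genes 9 of 10 lie above 0, and all 5 tested type VI genes lie below 0.

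The basement membrane gave the smallest p-values. Col4a1 and Col4a2 code for the chains of the most widespread type IV collagen and share a promoter, lying head to head on chromosome 8. Their first exons overlap by 22 bp on opposite strands, and this shared stretch, in GRCm38 at chr8:11312805-11312826 and written on the Col4a2 strand from the RefSeq promoter window, holds a GC box (GGGCGG, in capitals):
Col4a2 and Col4a1: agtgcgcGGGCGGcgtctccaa
Col4a3 and Col4a4 also lie head to head, with 126 bp between their starts, and Col4a5 and Col4a6 with 1333 bp.

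Col4a1 (ENSMUSG00000031502.11, chromosome 8, 11198423 to 11312826) was at 1246, 952 and 1526 CPM in DMSO replicates 1, 2 and 3, and at 1606, 1177 and 1773 CPM in the GSK-126 replicates of the same numbers. Within each pair the level was higher with GSK-126 than with DMSO. Replicate 2 was lowest in both groups, and its GSK-126 library lay below DMSO replicate 1. The log2 fold change of Col4a1 was 0.30 (standard error 0.067, edgeR with the block, Benjamini-Hochberg adjusted p = 0.0072). Col4a2 (ENSMUSG00000031503.13, chromosome 8, 11312805 to 11449287) was at 660, 495 and 885 CPM with DMSO and at 825, 615 and 1031 CPM with GSK-126. Again all 3 pairs rose by a similar amount while the groups overlapped. Its log2 fold change was 0.29 (standard error 0.067, edgeR with the block, Benjamini-Hochberg adjusted p = 0.0095). Without the block both adjusted p-values were 0.953 (edgeR, Benjamini-Hochberg), and both calls held when any 1 pair was left out, with adjusted p between 0.0116 and 0.0422. The counting may be uncertain for the few reads on the shared 22 bp and on 43 bp of Col4a2 that overlap Gm15419 on the opposite strand, since no strand setting was stated. The ratio of Col4a1 to Col4a2 counts, not divided by length, lay between 1.72 and 1.95 in the 6 libraries, with means of 1.85 ± 0.107 with DMSO and 1.86 ± 0.122 with GSK-126 (SD, n = 3).

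The other 6 basement membrane genes did not pass. Col18a1, the source of endostatin, was higher in all 3 pairs, by 0.12 on the log2 scale (standard error 0.070), and Col15a1, its close relative, had -0.13 (standard error 0.37) at 2.90 ± 1.48 CPM with DMSO (SD, n = 3). Col4a5 and Col4a6, the X-linked chains, had log2 fold changes of 0.019 and 0.24, with standard errors of 0.081 and 0.15. Col4a3 and Col4a4, whose chains mark specialised basement membranes such as that of the kidney filter, were near the filter, between 0.323 and 3.94 CPM in every library. Exons of Col4a3 overlap C430014B12Rik on the opposite strand by 563 bp. As a class, the 8 genes had 0.14 as their median log2 fold change, and their summed level went from 2600, 1845 and 3107 CPM with DMSO to 3154, 2246 and 3532 CPM with GSK-126, a within-pair log2 ratio of 0.28, 0.28 and 0.19.

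Fibrillar collagens had the highest summed level per kilobase of the 3 classes, and 9 of the 10 tested had a log2 fold change above 0. Col1a1, which codes for the main chain of type I collagen, had the highest level per kilobase of all collagens and did not pass. Col1a1 (ENSMUSG00000001506.10, chromosome 11, 94936224 to 94953042) was at 2303, 3044 and 3564 CPM with DMSO and at 3007, 3139 and 3716 CPM with GSK-126. Its 3 pairs all pointed upwards, but the difference between cultures was larger than that within pairs 2 and 3, and the log2 fold change was 0.16 (standard error 0.074, edgeR with the block, Benjamini-Hochberg adjusted p = 0.200). Col1a2 (ENSMUSG00000029661.16, chromosome 6, 4504814 to 4541544), the partner chain of type I collagen, was at 1999, 2165 and 2564 CPM with DMSO and at 2526, 2386 and 2898 CPM with GSK-126. GSK-126 replicates 1 and 2 lay below DMSO replicate 3, so the groups overlapped, although each pair was higher with GSK-126. The log2 fold change of Col1a2 was 0.22 (standard error 0.067, edgeR with the block, Benjamini-Hochberg adjusted p = 0.0498, and 0.953 without the block). This call lay at the threshold, and it was lost when any 1 pair was left out, with adjusted p of 0.199 without replicate 1, 0.0797 without replicate 2 and 0.114 without replicate 3 (edgeR, Benjamini-Hochberg).

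Col5a2 (ENSMUSG00000026042.16, chromosome 1, 45374321 to 45503282) codes for a chain of type V collagen, which lies inside type I fibrils and limits their width. It was at 428, 454 and 547 CPM with DMSO and at 521, 518 and 661 CPM with GSK-126. The highest DMSO library, replicate 3, lay above 2 of the GSK-126 libraries, and all 3 pairs were higher with the drug. Its log2 fold change was 0.25 (standard error 0.068, edgeR with the block, Benjamini-Hochberg adjusted p = 0.0253, and 0.953 without the block), and the call was lost without replicate 1 (adjusted p = 0.105) or replicate 3 (0.125) and held without replicate 2 (0.0312). Its partner Col5a1 had a log2 fold change of 0.19 (standard error 0.069) with an edgeR Benjamini-Hochberg adjusted p of 0.110. Its exons share 99 bp with 2810430I11Rik and 113 bp with Gm13372 on the opposite strand. The ratio of Col5a1 to Col5a2 counts lay between 0.838 and 0.944 in the 6 libraries.

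The other tested fibrillar genes were Col2a1, Col3a1, Col5a3, Col11a1, Col11a2 and Col27a1. Col3a1, the collagen of elastic tissues and vessel walls, was second in level per kilobase, with a log2 fold change of 0.093 (standard error 0.067). Its exons share 141 bp with Gm47302 on the same strand. The cartilage-type genes Col2a1, Col11a1 and Col11a2 had log2 fold changes of 0.13, 0.14 and 0.37, with standard errors of 0.15, 0.094 and 0.20. Col27a1 was the 1 fibrillar gene below 0, and it is described here because its pairs disagreed, a choice made after its values were seen. Its within-pair log2 ratios were -0.77, 0.34 and -0.97, from 78.3, 75.1 and 67.7 CPM with DMSO to 46.0, 95.0 and 34.6 CPM with GSK-126, and its adjusted p was 0.108 (edgeR with the block, Benjamini-Hochberg). Replicate 2 thus went the other way from replicates 1 and 3, and without it Col27a1 passed with -0.86 (edgeR, Benjamini-Hochberg adjusted p = 4.7e-04). It also passed with no filter on low counts (-0.42, edgeR, Benjamini-Hochberg adjusted p = 0.00147). The fibrillar genes summed to 7686, 8454 and 10294 CPM with DMSO and to 9421, 8933 and 11058 CPM with GSK-126, with log2 ratios of 0.29, 0.079 and 0.10 and a median log2 fold change over genes of 0.15.

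**Figure D3:**
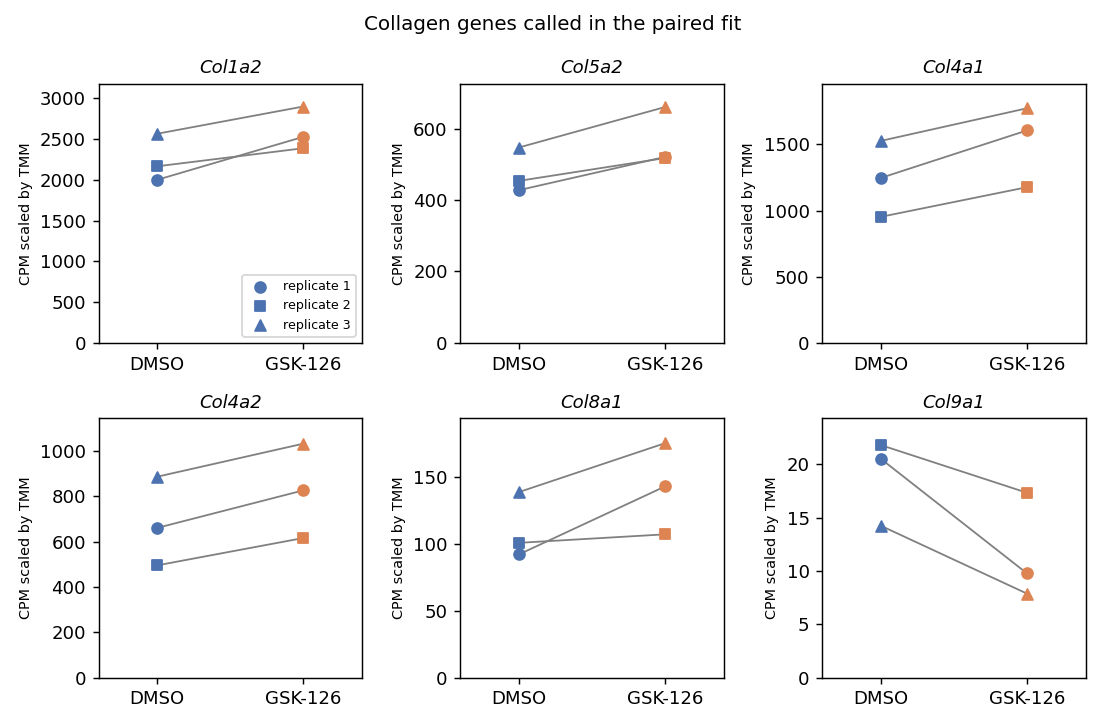
Level in CPM scaled by TMM (vertical axis from 0) of the 6 called collagen genes in DMSO and GSK-126 libraries, with lines that join libraries of the same replicate number. Each of the 5 higher genes rises and Col9a1 falls along all 3 lines. For Col4a1, Col4a2 and Col9a1 the replicate numbers keep the same order in both groups.

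Type VI collagen forms beaded microfibrils around cells. Its 5 tested genes, Col6a1, Col6a2, Col6a3, Col6a5 and Col6a6, all had log2 fold changes below 0 and none passed. The most abundant per kilobase was Col6a1 (ENSMUSG00000001119.7, chromosome 10, 76708792 to 76726168), at 187, 153 and 185 CPM with DMSO and at 179, 135 and 192 CPM with GSK-126. Pairs 1 and 2 were lower and pair 3 higher with the drug, and the log2 fold change of Col6a1 was -0.060 (standard error 0.076), which turned to 0.00044 without replicate 2. Col6a3, whose long chain completes the common type VI heterotrimer, had -0.26 (standard error 0.092) with an adjusted p of 0.0918 (edgeR with the block, Benjamini-Hochberg), and without replicate 3 it passed with -0.41 (adjusted p = 0.0091). Col6a2, Col6a5 and Col6a6 were lower in all 3 pairs, with log2 fold changes of -0.11, -0.89 and -0.19 and standard errors of 0.078, 0.33 and 0.089, although Col6a5 had 60 counts or fewer in every library. The class summed to 518, 392 and 510 CPM with DMSO and to 461, 334 and 502 CPM with GSK-126, giving log2 ratios of -0.17, -0.23 and -0.023, with a median over the tested genes of -0.19. The number of type VI genes below 0 was 5 under both other scalings, upper-quartile and total counts, and whether type VI differs from the fibrillar class was not tested.

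Among the network-forming and anchoring collagens, Col8a1 was called. Col8a1 (ENSMUSG00000068196.5, chromosome 16, 57624258 to 57754737) codes for a chain of the short type VIII collagen, made by endothelium and by smooth muscle cells after injury. It was at 91.9, 101 and 138 CPM with DMSO and at 143, 107 and 175 CPM with GSK-126. Pair 1 differed most and pair 2 least, with within-pair log2 ratios of 0.63, 0.088 and 0.34, and GSK-126 replicate 2 lay below DMSO replicate 3. The log2 fold change of Col8a1 was 0.35 (standard error 0.092, edgeR with the block, Benjamini-Hochberg adjusted p = 0.0180, and 0.953 without the block), and the call was lost without replicate 1, with 0.23 and an adjusted p of 0.286, but not without replicate 2 (0.0041) or replicate 3 (0.0260). Its partner Col8a2 and the anchoring fibril gene Col7a1 were lower in all 3 pairs without passing, with log2 fold changes of -0.18 (standard error 0.17) and -0.14 (standard error 0.11).

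The collagens that decorate fibrils (FACIT collagens) held the lower gene. Col9a1 (ENSMUSG00000026147.16, chromosome 1, 24177610 to 24252684) codes for a chain of type IX collagen, known from cartilage, where it coats type II fibrils. It was at 20.5, 21.8 and 14.3 CPM with DMSO and at 9.78, 17.3 and 7.88 CPM with GSK-126. Every pair was lower with the drug, and the groups overlapped because GSK-126 replicate 2 lay above DMSO replicate 3. Its log2 fold change was -0.74 (standard error 0.17, edgeR with the block, Benjamini-Hochberg adjusted p = 0.010, and 0.953 without the block). The call of Col9a1 was lost without replicate 1 (-0.54, adjusted p = 0.132), held without replicate 2 (0.0104) or replicate 3 (0.0177), and narrowly missed by DESeq2's Wald test with the block (Benjamini-Hochberg adjusted p = 0.0527).

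The genes of the type IX partner chains were not called. Col9a3 (ENSMUSG00000027570.15, chromosome 2, 180597790 to 180622189), the FACIT gene with the highest level per kilobase, was at 147, 45.4 and 90.6 CPM with DMSO and at 158, 55.0 and 83.1 CPM with GSK-126, a log2 fold change of 0.081 (standard error 0.089). Its spread between cultures, from replicate 2 to replicate 1, was far larger than the difference within any pair, and its exons share 234 bp with Tcfl5 on the opposite strand. Col9a2 lay between 1.03 and 2.78 CPM in all libraries, with a log2 fold change of 0.40 (standard error 0.43). The ratio of Col9a3 to Col9a1 counts was 7.15, 2.08 and 6.35 with DMSO and 16.2, 3.17 and 10.5 with GSK-126, higher with the drug within each pair, and the difference between the genes' changes was not tested. The other FACIT genes, Col12a1, Col14a1, Col16a1, Col19a1, Col20a1 and Col22a1, had log2 fold changes between -0.25 (Col19a1) and 0.27 (Col22a1) and none passed. Col12a1, which coats fibrils in tendon and skin, had the highest level of these 6 per kilobase of exon, with 11.6 ± 2.10 CPM per kilobase in the DMSO libraries (SD, n = 3) and a log2 fold change of 0.14 (standard error 0.077).

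Of the transmembrane collagens, Col23a1 (ENSMUSG00000063564.13, chromosome 11, 51289920 to 51583918) had the highest level per kilobase. It was at 50.9, 35.1 and 51.9 CPM with DMSO and at 69.3, 48.6 and 54.6 CPM with GSK-126. All pairs were higher with the drug, pair 3 least, and the log2 fold change of 0.33 (standard error 0.11, edgeR with the block, Benjamini-Hochberg adjusted p = 0.0609) missed the threshold but passed it under upper-quartile scaling, under total counts, with either other filter on low counts and without replicate 3 (adjusted p between 0.0112 and 0.0430). Col13a1 had 14, 22 and 15 counts with DMSO and 28, 1 and 2 counts with GSK-126, so its log2 fold change of -1.22 (standard error 0.65) joined a pair that was higher to 2 that were lower, and it passed without replicate 1 (-3.11, edgeR, Benjamini-Hochberg adjusted p = 0.0291). Col17a1, of the skin's hemidesmosomes, lay between 0.682 and 1.74 CPM. Col26a1 (ENSMUSG00000004415.15, chromosome 5, 136741759 to 136883209), placed in no family here, was at 53.2, 8.95 and 24.8 CPM with DMSO and at 43.1, 7.54 and 25.0 CPM with GSK-126. Its levels were again spread by replicate number rather than by treatment, with a log2 fold change of -0.18 (standard error 0.13). Col28a1 had 39 counts or fewer per library and a log2 fold change of 0.86 (standard error 0.49).

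The genes not tested were Col6a4, Col10a1, Col24a1 and Col25a1, with at most 16, 4, 12 and 11 counts in any library. Col10a1 marks hypertrophic cartilage, Col24a1 is a minor fibrillar collagen, and Col25a1 is a membrane collagen known from neurons. Col25a1 had 6, 11 and 3 counts with DMSO and 1, 3 and 1 with GSK-126, lower in all 3 pairs, with a log2 fold change of -1.86 (standard error 1.35, edgeR with the block, Benjamini-Hochberg adjusted p = 0.711) when no filter on low counts was used. Without the filter none of the 4 passed, at adjusted p between 0.703 and 0.990 (edgeR, Benjamini-Hochberg), with standard errors between 0.741 and 2.45 on the log2 scale.

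Differences between cultures exceeded the change with GSK-126 for most members. For 36 of the 40 tested genes the log2 fold change was smaller than the range between the lowest and highest DMSO library. The highest DMSO library was a median of 1.58 times the lowest, against 1.41 over all genes tested without a 0. Replicate 2 was lowest in both groups for 18 of the 40 genes, and replicate 3 was highest in both for 18. The shares of all genes tested that meet these rules were not counted, so the counts are not read as particular to collagens. Over all genes tested the quartiles of the log2 fold change were -0.17 and 0.17.

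The promoters of the called genes with a promoter window differed in composition. RefSeq promoter windows, from 250 bases before to 50 after the start, were found for 35 of the 44 collagens. Each of these collagens was given a single window, the one nearest to an annotated transcript start. The windows of all genes were taken without such a choice, so the shares and medians below are not on the same basis. GC boxes (GGGCGG on either strand) occurred in 21 of these 35 windows (60.0%) and in 35.7% of 32851 windows of all genes, CCAAT boxes (CCAAT on either strand) in 31.4% and 37.4%, and TATA boxes (TATAAA on either strand) in 14.3% and 13.6%. The median number of CpG dinucleotides was 11 in collagen windows and 7 in all windows. The windows of Col4a1 and Col4a2 held 37 and 33 CpG, those of Col1a2 and Col8a1 held 13 and 12, and that of Col9a1, the gene that fell, held 0, as did those of Col3a1 and Col28a1, which were not called. The stretches printed for Col1a2 (GRCm38 chr6:4505496-4505525, plus strand) and Col8a1 (chr16:57754793-57754822, minus strand) are 30 bases around a motif. That of Col9a1 (chr1:24177580-24177609, plus strand) is the 30 bases just before the start. Being chosen in unlike ways, they do not show a contrast between the genes, and the Col1a2 and Col9a1 stretches hold no CpG. A CCAAT box and the GC boxes are in capitals, with no motif in the last:
Col1a2: aaaaagaatggaaCCAATttaagaagcccc
Col8a1: cacgggggcagcCCGCCCgCCGCCCccgct
Col9a1: tgtgaccttgttagttttgagccaggcaca
No window was found for Col1a1 or for Col5a2, so the called gene Col5a2 is not part of this description. The window of Col1a2 also held 2 GC boxes, 205 and 188 bases before the start, and another CCAAT box at base +1, outside the printed stretch. This start is the RefSeq one, and the window (4505368 to 4505667) lies inside the annotated gene, which begins at 4504814.

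Proteins that fold, cut, cross-link, bind or degrade collagens were described from lists of 101 genes, 98 of them tested. Of these, 14 (14.3%) were called higher and 1 (1.02%) lower in the fit with the block, against 3.35% and 5.09% of all genes tested, and 0 without it (edgeR, Benjamini-Hochberg adjusted p under 0.05). The counts of each list below stand against the same shares. Their median log2 fold change was 0.11, against -0.0056 over all genes, and 70 of 98 (71.4%) were above 0, against 49.1%.

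Of 24 genes for chain folding and hydroxylation, 2 rose. P4ha2, a subunit of the prolyl hydroxylase that stabilises the helix, went from 29.7 ± 5.12 to 44.4 ± 1.75 CPM (SD, n = 3), with no overlap between the groups and a log2 fold change of 0.59 (standard error 0.12, edgeR with the block, Benjamini-Hochberg adjusted p = 0.0028). Plod1, a lysyl hydroxylase, went from 70.4 ± 20.1 to 85.0 ± 21.1 CPM and 0.28 on the log2 scale (edgeR with the block, adjusted p = 0.0498), higher in all 3 pairs. The median of this list was 0.14.

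Of 13 tested genes for propeptide cleavage and cross-linking, 2 rose and 1 fell, with a median of 0.083. Lox, the enzyme that starts collagen cross-links, was at 489, 728 and 697 CPM with DMSO and at 798, 886 and 1002 CPM with GSK-126. The groups of Lox did not overlap, and its log2 fold change was 0.50 (standard error 0.077, edgeR with the block, Benjamini-Hochberg adjusted p = 2.3e-04). Its relative Loxl1 also rose, by 0.29 on the log2 scale, while Bmp1, the protease that removes the C-propeptide of fibrillar collagens, fell by 0.37 on the log2 scale (standard error 0.069, edgeR with the block, Benjamini-Hochberg adjusted p = 0.0016), from 458 ± 123 to 356 ± 102 CPM (SD, n = 3).

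Of 10 tested collagen receptors, 2 rose with a list median of 0.11, namely Itgb1, the beta chain of collagen-binding integrins (0.29), and Mrc2, which takes up collagen for degradation (0.27). Of 17 tested fibril-associated matrix proteins, 4 rose with a list median of 0.18, namely the thrombospondins Thbs1 (0.50) and Thbs2 (0.41), elastin Eln (0.31) and fibronectin Fn1 (0.29), the last named after its values were seen. None of the 20 laminins and other basement membrane proteins passed, and their median was 0.010. Among 14 collagenases and inhibitors 4 rose with a list median of 0.13, namely the inhibitors Timp3 (0.41) and Timp1 (0.52), the protease Mmp3 (0.55) and, named after its values were seen, the collagen-cleaving cathepsin Ctsk (0.42).

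Markers of other cell types were read beside these genes, with calls from edgeR with the block, by which 3.35% of all genes were higher and 5.09% lower. The lists overlap in part. Pdgfra stands in those of fibroblasts and of the oligodendrocyte lineage, and Cspg4 in those of pericytes and of the oligodendrocyte lineage. Of the 9 tested pericyte and smooth muscle markers, 3 were called higher, namely Pdgfrb (0.36), Acta2 (0.43) and Tagln (0.52), and the median log2 fold change of the list was 0.37. While 7 of the 9 had a log2 fold change above 0, Myh11 (-0.40) and Abcc9 (-0.55) were below 0, at 2.57 ± 1.02 and 1.62 ± 0.562 CPM with DMSO (SD, n = 3). Abcc9 and the untested Kcnj8 were lower in all 3 pairs. The summed level of that list was higher in all 3 pairs, with log2 ratios of 0.58, 0.37 and 0.32. Most of that sum came from Acta2 and Tagln, at 401 ± 112 and 273 ± 56.6 CPM with DMSO (SD, n = 3). Of the 10 fibroblast and meninges markers, of which Dcn, Lum and Ogn also stand among the partners, Mgp was called higher and Slc6a13 lower, with a list median of 0.16 and log2 ratios of the sums of 0.0034, 0.050 and 0.28.

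None of the 9 tested endothelial markers passed, with a median of 0.018. Among 10 astrocyte and Bergmann glia markers Gdf10 was higher, and the list median was 0.014. Of the 9 tested microglia markers C1qa and C1qb were higher, the list median was 0.18, and the list summed to 265 to 531 CPM with DMSO and 352 to 657 CPM with GSK-126, with Trem2 listed at 0 in every library. Mbp was the 1 higher gene of 10 in the oligodendrocyte lineage list (median 0.088), none of 7 tested choroid plexus and ependyma markers passed (median 0.025), and Gad1, Gad2 and Slc32a1 were lower among 10 markers of GABAergic and Purkinje neurons (median -0.29). Of the granule neuron markers, 8 of 12 were called lower and Tubb3 higher, with a median of -0.43 and summed log2 ratios of -0.37, -0.40 and -0.42. The part of these markers in the collagen changes was not tested.

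**Figure D4:**
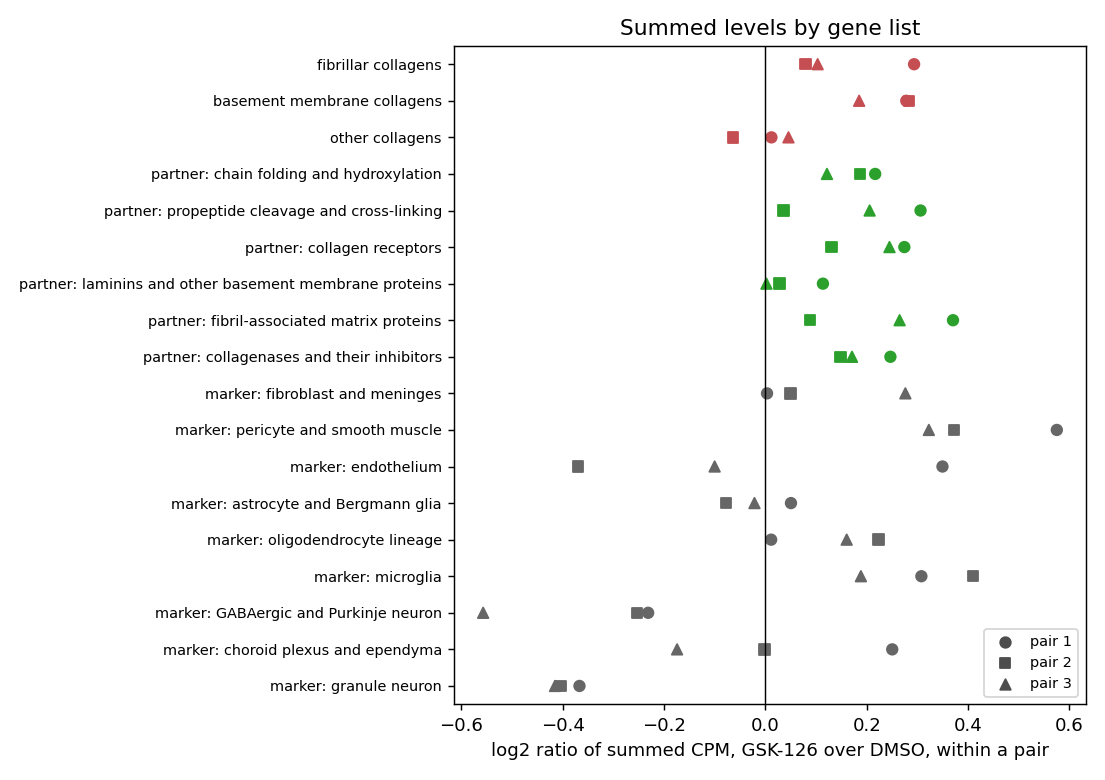
Log2 ratio of the summed CPM of each gene list, GSK-126 over DMSO, for each of the 3 pairs (horizontal axis, 1 symbol per pair), for collagen classes in red, collagen partners in green and cell type markers in grey. Fibrillar and basement membrane collagens, every partner list and the markers of fibroblasts and meninges, pericytes and smooth muscle, the oligodendrocyte lineage and microglia lie above 0 in all pairs, and the markers of granule neurons and of GABAergic and Purkinje neurons lie below 0 in all pairs.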

How the data were processed

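Poly-A RNA of 3 DMSO and 3 GSK-126 cultures was sequenced in paired-end mode, and groups and replicate numbers were taken from the sample labels. The authors trimmed reads with Trimmomatic 0.38, aligned them to mm10 (GRCm38) with STAR 2.7.2b and counted reads on exons with HTSeq. They deposited raw counts per gene symbol, without normalization, and the strand setting was not given in the sources used here. Lines that name no gene held 58.7% to 60.7% of each table and were left out. The 55341 symbols are those of GENCODE M21, which gave identifiers, coordinates and exon overlaps.

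Counts were tested in R 4.3.3 with edgeR 4.0.16 (TMM, filterByExpr, quasi-likelihood test with the replicate number as a block, Benjamini-Hochberg adjustment over 16729 genes, calls at an adjusted p under 0.05). The block was set because the comparison was defined within replicate numbers, and the pairing was then checked in the counts. Replicate numbers 1 to 3 occur in either group's labels, which do not say whether libraries of equal number share litters. Deviations from the group means correlated across genes at 0.513 or more between libraries of equal number, which was taken as pairing. Standard errors of log2 fold changes were taken from the quasi-likelihood F statistic. The biological coefficient of variation was 9.74% with the block and 24.0% without. Replicates are cultures of pooled litters. With the block, the spread between replicate numbers is taken out. The variance behind each p-value combines a gene's differences within the 3 pairs with information shared across all genes. A p-value therefore does not measure the spread of 1 gene's pairs alone. For Col27a1, within-pair log2 ratios of -0.77, 0.34 and -0.97 came with a standard error of 0.16. For a single gene, an exact permutation test of 3 against 3 libraries that ignores the pairing could not go below p = 0.1. A permutation within the 3 pairs allows fewer arrangements and has a higher floor, which was not computed. DESeq2 1.42.0, other scalings, filters and thresholds, no block and each pair left out were the alternatives. The scripts were tested on simulated data.

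All collagens were accounted for. Values in every library were given for called genes and for the member of each class with the highest level per kilobase of exon, and partner genes were named by smallest p, at most 3 per direction and list. The members and lists were chosen with earlier results of these data known, so that no list was tested as a set.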

Additional observations from a re-analysis of the deposited data

How the results depend on the processing

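The pairing decided the calls. With no replicate block, edgeR and DESeq2 called 0 collagen genes higher and 0 lower (5 and 1 with the block), 0 partners in either direction (14 and 1), and 0 and 0 (edgeR) or 19 and 2 (DESeq2) of all genes (561 and 851). DESeq2 with the block called 5 collagens higher and 0 lower, and 351 of all genes higher and 600 lower. With no filter on low counts, 8 collagens were higher and 2 lower. At an adjusted p under 0.01, 2 collagens were higher and 0 lower, 6 partners were higher, and 242 of all genes were higher and 474 lower. Total counts gave 22 higher partners. The split of all calls moved from 561 higher and 851 lower to 727 and 698 under upper-quartile scaling and 714 and 707 under total counts, where the median of all genes was 0.029 and 0.028, and the collagen median moved from 0.092 to 0.13 under both.

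Leaving out 1 pair gave 2 to 4 higher and 1 to 2 lower collagens, 9 to 15 higher and 1 to 2 lower partners, and 337 to 558 higher and 496 to 719 lower genes in all. The lowest collagen count came without replicate 1, and the lowest counts over all genes without replicate 2. Medians ranged from 0.060 to 0.093 over collagens, 0.12 to 0.23 over fibrillar, 0.11 to 0.22 over basement membrane and -0.16 to -0.053 over other collagens, and the basement membrane median was 0.20 among genes with at least 10 counts in every library. Collagens called under some alternative alone were Col1a1, Col5a1, Col6a3, Col13a1, Col23a1 and Col27a1.

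Of 433 values of single collagens under alternatives, 13 changed sign, all of genes that did not pass. With no block, Col4a4 was 0.14 (0.12 by DESeq2). The other sign changes came from leaving out 1 pair, over which Col4a3 ranged from -0.051 to 0.38, Col4a4 from -0.64 to 0.26, Col4a5 from -0.061 to 0.076, Col6a1 from -0.12 to 0.00044, Col14a1 from -0.11 to 0.35, Col15a1 from -0.39 to 0.028, Col17a1 from -0.50 to 0.13, Col20a1 from -0.33 to 0.22 and Col22a1 from -0.12 to 0.80. Causes were not tested. Levels per kilobase depend on the length used, an alternative chosen after seeing the data. The ratio of Col1a1 to Col1a2 was 2.18 to 2.66 per kilobase of exon and 1.04 to 1.27 per kilobase of the longest coding transcript. Depth limited the genes with few counts, such as Col13a1, Col4a3 and Col22a1, whose standard errors were the largest of the tested collagens along with those of Col17a1 and Col28a1.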

Other observations

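Some collagens followed the replicate numbers in a shared order, with replicate 1 highest and replicate 2 lowest in both groups, a pattern picked after the values were seen and given here as values. It held for 8 of the 40 tested collagens (Col4a4, Col4a5, Col4a6, Col6a2, Col6a5, Col6a6, Col9a3 and Col26a1) and for 9.86% of all genes tested. It also held for the sums of 4 of the 9 marker lists, those of astrocytes and Bergmann glia, fibroblasts and meninges, the oligodendrocyte lineage and microglia. The fibroblast and oligodendrocyte lists share Pdgfra, so their sums are not independent. The summed astrocyte and Bergmann glia markers were at 8410, 2859 and 4747 CPM in DMSO replicates 1, 2 and 3 and at 8711, 2709 and 4677 CPM in the GSK-126 replicates. Col26a1 had the same order, with 53.2, 8.95 and 24.8 CPM and then 43.1, 7.54 and 25.0 CPM, as did Col9a3, with 147, 45.4 and 90.6 CPM and then 158, 55.0 and 83.1 CPM. Col4a6 did so too, with 30.5, 8.58 and 21.2 CPM and then 30.2, 11.5 and 27.6 CPM. Col2a1 had the opposite place for replicate 2, which was its highest in both groups at 32.3 and 31.8 CPM, and its lowest was replicate 3 at 7.39 and 8.68 CPM.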
